A study of Mus musculus with 2 samples.

Results

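The cells described here are Inha-expressing cells of the mouse ovary that carried mRNA of at least 3 of the 5 genes Kcnk3, Mrap, Agt, Tmem35a and Sod3. They were chosen by a rule on measured values: at least 500 genes detected, at most 25% mitochondrial counts, Inha at 3000 CPM or more (CPM is a gene's count scaled to a common total for every cell or population), Cyp11a1 below 2000 CPM, and at least 1 unique molecular identifier (UMI, a tag that counts each captured mRNA molecule once) of at least 3 of those 5 genes. The rule selected 718 of the 29623 cells kept in the series, 245 in the control library and 473 in the library of exposed mice. They are called the member cells below. The other cells within the same Inha and Cyp11a1 limits, 8662 in the control library and 8052 in the exposed library, are called the other Inha cells and serve as the comparison within each library.

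Ovaries of female ICR mice, an outbred stock, were dissociated and captured on the BD Rhapsody bead system, which tags the mRNA of single cells. Water by daily gavage for 35 days was the control treatment, and the PS-MP library was made from mice that received polystyrene microplastic particles of 100 nm at 1 mg in 100 µL per mouse over the same 35 days. The labels give an age of 8 weeks for both. Each group is 1 library of pooled ovaries with no map from cells to mice, so exposure, library and the individual mice cannot be told apart, and no test between the libraries was possible. All intervals below are 95% intervals and cover counting error only.

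Granulosa cells surround the oocyte, and their markers Inha (a subunit of inhibin) and Foxl2 (the transcription factor that maintains granulosa identity) set them apart from theca and stroma. Cells of small growing follicles make anti-Muellerian hormone (Amh). In large follicles the outer, mural cells gain the luteinising hormone receptor (Lhcgr), and after ovulation they become luteal cells with high Cyp11a1, the enzyme that opens progesterone synthesis. Of the 5 genes in the rule, Kcnk3 encodes the acid-sensitive 2-pore potassium channel TASK-1, Mrap the accessory protein that carries the adrenocorticotropin receptor to the cell surface, Agt the precursor of angiotensin, Tmem35a a chaperone of nicotinic acetylcholine receptors and Sod3 the extracellular superoxide dismutase. Igfbp4, which binds insulin-like growth factors and is cleaved by PAPP-A in follicles, was listed with these genes as a marker but took no part in the rule.

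The 2 libraries held 160257194 and 145474989 UMIs, and every deposited cell had more than 3500 UMIs. The 3 barcodes found in both libraries included 0 member cells. The member cells were deeper than the cells they are compared with: their median was 12126 UMIs against 10417.5 in the control library and 10940 against 9180 in the PS-MP library. A deeper cell passes a rule based on detection more easily, so shares are given both for all UMIs and after each cell was thinned at random to 3500 UMIs.

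The member cells made up 2.75% (2.42 to 3.11) of the 8907 Inha cells of the control library and 5.55% (5.07 to 6.06) of the 8525 PS-MP Inha cells, a PS-MP to control ratio of 2.02 (1.73 to 2.36). After thinning, 31 control cells (0.348%) and 82 PS-MP cells (0.962%) met the rule, a ratio of 2.76 (1.81 to 4.32). At both depths the PS-MP share lay above the control share, although the control cells were the deeper ones. In cells with macrophage or monocyte markers Kcnk3 stood at 12.1 CPM (PS-MP) and 3.74 (control), Mrap at 4.97 and 2.06, and Agt at 5.52 and 3.93. Tmem35a stood there at 2.21 and 2.62, and Sod3 at 8.83 and 11.6. Cells with Cyp11a1 at 2000 CPM or more and Edn2 numbered 1018 in the PS-MP and 6 in the control library. How far mRNA from other cells enters the share was not tested.

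The rule cut through a falling slope and not through a gap. In the PS-MP library 4000 cells had 0 of the 5 genes, 2855 had 1, 1197 had 2, 374 had 3, 87 had 4 and 12 had all 5. The control library held 4884, 2841, 937, 215, 26 and 4 cells in the same order. So 215 of 245 control and 374 of 473 PS-MP member cells stood at the threshold with exactly 3 genes, 1 gene away from the cells just outside. The ratio between the libraries was 3.50 (2.23 to 5.65) for cells with exactly 4 genes and 3.13 (0.950 to 13.3) for cells with all 5, where the interval includes 1.

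**Figure D1:**
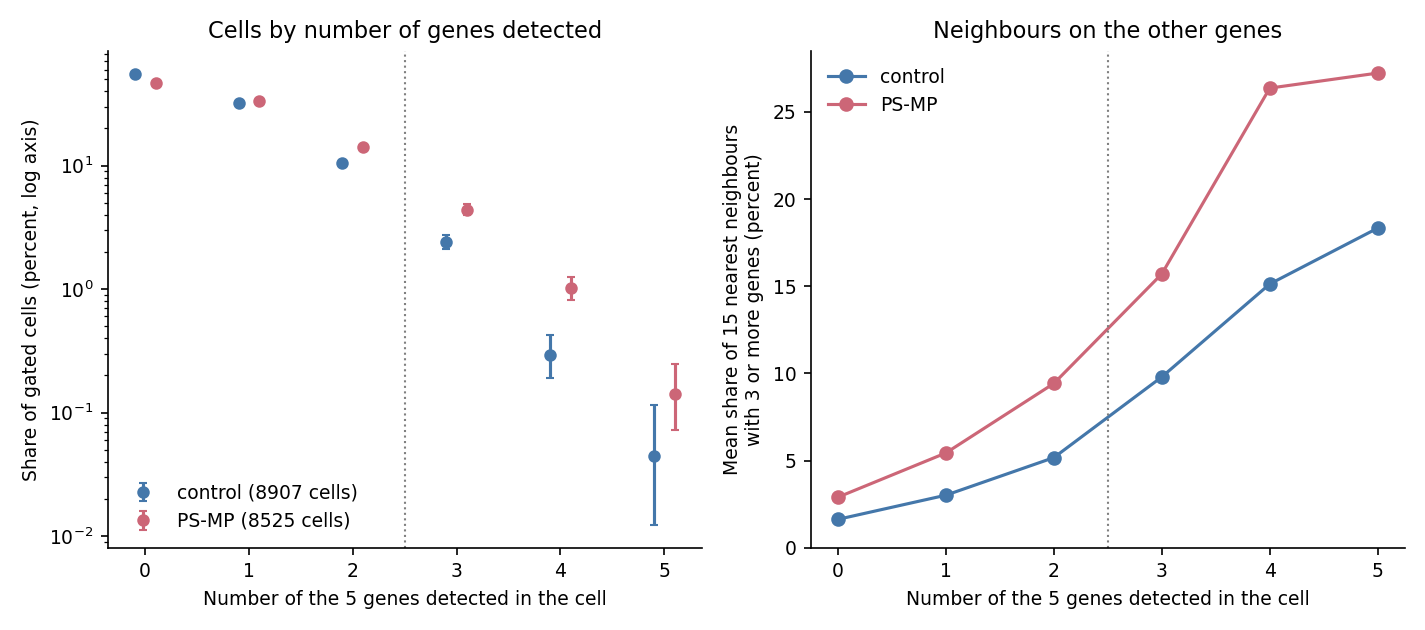
Left, share of Inha cells (percent, log axis) with each number of the 5 genes detected, with exact 95% binomial intervals. Right, mean share of the 15 nearest neighbours of a cell that are member cells, by the number of the 5 genes in the cell, on genes that the rule did not use. The dotted line marks the rule's threshold. Cell numbers fall without a gap across it, and the neighbour share climbs without a step from 2.90% at 0 genes to 27.2% at 5 in the PS-MP library.

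The other limits of the rule did not fall on a break either. Among PS-MP cells with Inha just below the limit, between 2500 and 3000 CPM, 8.86% had 3 or more of the genes, and just above it, between 3000 and 3500 CPM, 10.3% had. At the Cyp11a1 limit, 15 of 38 PS-MP cells (39.5%) between 1500 and 2000 CPM had 3 or more of the genes, and so did 11 of 27 cells (40.7%) between 2000 and 2500 CPM that the rule leaves out. In the control library these last counts were 1 of 31 and 1 of 14.

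The levels of the 5 genes were set by the rule and are given as a description, in CPM of counts summed over cells. Kcnk3 stood at 164 CPM in the PS-MP member cells against 16.1 in the other Inha cells, and at 121 against 11.8 in the control library. Its ratio was the highest of the 5 in both libraries. Agt stood at 153 against 33.5 CPM in the PS-MP library and at 120 against 21.7 in the control library. Sod3 stood at 102 against 17.8 and at 99.3 against 15.8, in the same order. Mrap stood at 72.2 against 17.2 and at 54.7 against 10.9, and Tmem35a at 67.7 against 13.8 and at 68.3 against 10.9. CPM here counts tagged transcripts and is not divided by gene length.

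Many of these detections rested on a single molecule. Of the 292 PS-MP member cells with Kcnk3, 125 had 1 UMI and 119 had 3 or more, with a highest value of 22. Agt was found in 366 of the 473 cells, 185 of them with 1 UMI. Mrap was detected in 280 cells, and in 202 of them by 1 UMI. Tmem35a was detected in 267 cells, and in 190 of them by 1 UMI. Sod3 was detected in 325 cells, and in 205 of them by 1 UMI. A small group of cells carried much of each signal: the 48 PS-MP member cells with the most UMIs of a gene held between 34.0% (Tmem35a) and 47.9% (Kcnk3) of its UMIs over all member cells.

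No combination of genes dominated. Among PS-MP cells with exactly 3 genes, Kcnk3 with Agt and Sod3 was the most frequent trio with 60 cells, followed by Mrap with Agt and Sod3 with 53. The least frequent was Kcnk3 with Mrap and Tmem35a, with 9. Control trios ranged from 12 cells (Kcnk3, Mrap and Tmem35a) to 30 (Kcnk3, Agt and Tmem35a).

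With all UMIs counted, each gene was detected more often where the others were, counting only the other 4 genes. Kcnk3 was detected in 32.0% (26.4 to 37.9) of the PS-MP Inha cells that had 3 or more of the other 4 genes, and in 7.45% (6.68 to 8.27) of those with none of them. Agt was detected in 44.3% against 19.2%, Sod3 in 36.5% against 10.7%, Tmem35a in 27.7% against 10.7% and Mrap in 27.7% against 13.6%. The control shares were 21.1% against 7.69% for Kcnk3, 29.3% against 14.4% for Agt, 21.8% against 10.7% for Sod3, 20.3% against 9.54% for Tmem35a and 16.2% against 9.54% for Mrap. Cells with 3 or more of the other genes were also deeper, with a median of 11412 UMIs against 8814 for Kcnk3 in the PS-MP library. After thinning, Kcnk3 remained at 30.8% (17.0 to 47.6) of 39 PS-MP cells against 4.59% (4.08 to 5.14) of 6255. In the control library only 8 cells were left in the first group and 0 of them had Kcnk3, which allows a share of up to 36.9%. The thinned PS-MP shares were 29.4% against 10.1% for Agt, 21.1% against 5.87% for Sod3, 22.9% against 4.92% for Tmem35a and 19.5% against 6.28% for Mrap. The thinned control groups were too small to tell: 1 of 9 cells had Agt (against 6.62%), 1 of 17 Sod3 (5.42%), 1 of 17 Tmem35a (4.01%) and 1 of 14 Mrap (3.89%).

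Igfbp4, which the rule did not use, followed the number of genes in both libraries. It was listed as a marker with earlier results of these data known, so this is a description and not independent support. It was detected in 18.7% of PS-MP Inha cells with 0 of the 5 genes, 26.3% with 1, 38.3% with 2 and 51.0% with 3 or more, and after thinning in 12.0%, 19.7%, 33.0% and 36.6%. In the control library the shares for all UMIs were 13.1%, 18.9%, 25.5% and 35.5%, and after thinning 7.41%, 9.80%, 17.6% and 29.0%, the last over 31 cells. Its level was 214 CPM in the PS-MP member cells against 69.2 in the other Inha cells, a ratio of 3.09 (2.90 to 3.29), and 129 against 35.1 in the control library, a ratio of 3.68. The UMIs were unevenly spread: the 48 PS-MP member cells with the most Igfbp4 held 58.7% of it, and the 25 such control cells 67.2%.

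The 6 markers did not share one cell source in the ovary. Kcnk3 was highest in cells with Cyp11a1 at 2000 CPM or more, at 594 (PS-MP) and 534 (control) CPM in those not set apart by Edn2, Ptgfr or Cyp17a1. It stood at 569 in the 1018 PS-MP cells with Edn2 (endothelin 2, made at ovulation), and at 474 and 428 in those with the prostaglandin F receptor gene Ptgfr. Mrap was high in the same cells, at 602 CPM with Edn2, and at 392 (PS-MP) and 237 (control) with Ptgfr. Agt was low there. It was at 13.7 CPM in the Edn2 cells and at 8.39 (PS-MP) and 3.20 (control) in the Ptgfr cells. Pericyte or smooth muscle cells had 48.1 (PS-MP) and 113 (control), and the other Inha cells 33.5 and 21.7. The member cells were chosen in part for Agt, so their level is not ranked against these. Tmem35a was at most 98.4 CPM elsewhere, in PS-MP cells with high Cyp11a1 and Cyp17a1 (the androgen enzyme of theca).

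Sod3 was highest in cells with pericyte or smooth muscle markers, at 1528 CPM in the PS-MP and 2010 in the control library, and reached 290 and 258 in cells with stroma markers. Igfbp4 was highest in cells with blood endothelium markers, at 1095 and 1345 CPM, and stood at 967 and 657 in stroma. Cells with macrophage or monocyte markers had Igfbp4 too, at 298 (PS-MP) and 287 (control) CPM and in 56.1% and 57.9% of cells, above its level in the member cells. These cells are not a source of granulosa mRNA and served as the measure of background for the other markers. They had Kcnk3 in 6.82% (PS-MP) and 2.87% (control) of cells and Tmem35a in 1.52% and 2.07%, at median depths of 5396.5 and 6859 UMIs. The member cells' own shares for Kcnk3 were 61.7% and 63.3%, and the other Inha cells' shares 8.87% and 8.19%.

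**Figure D2:**
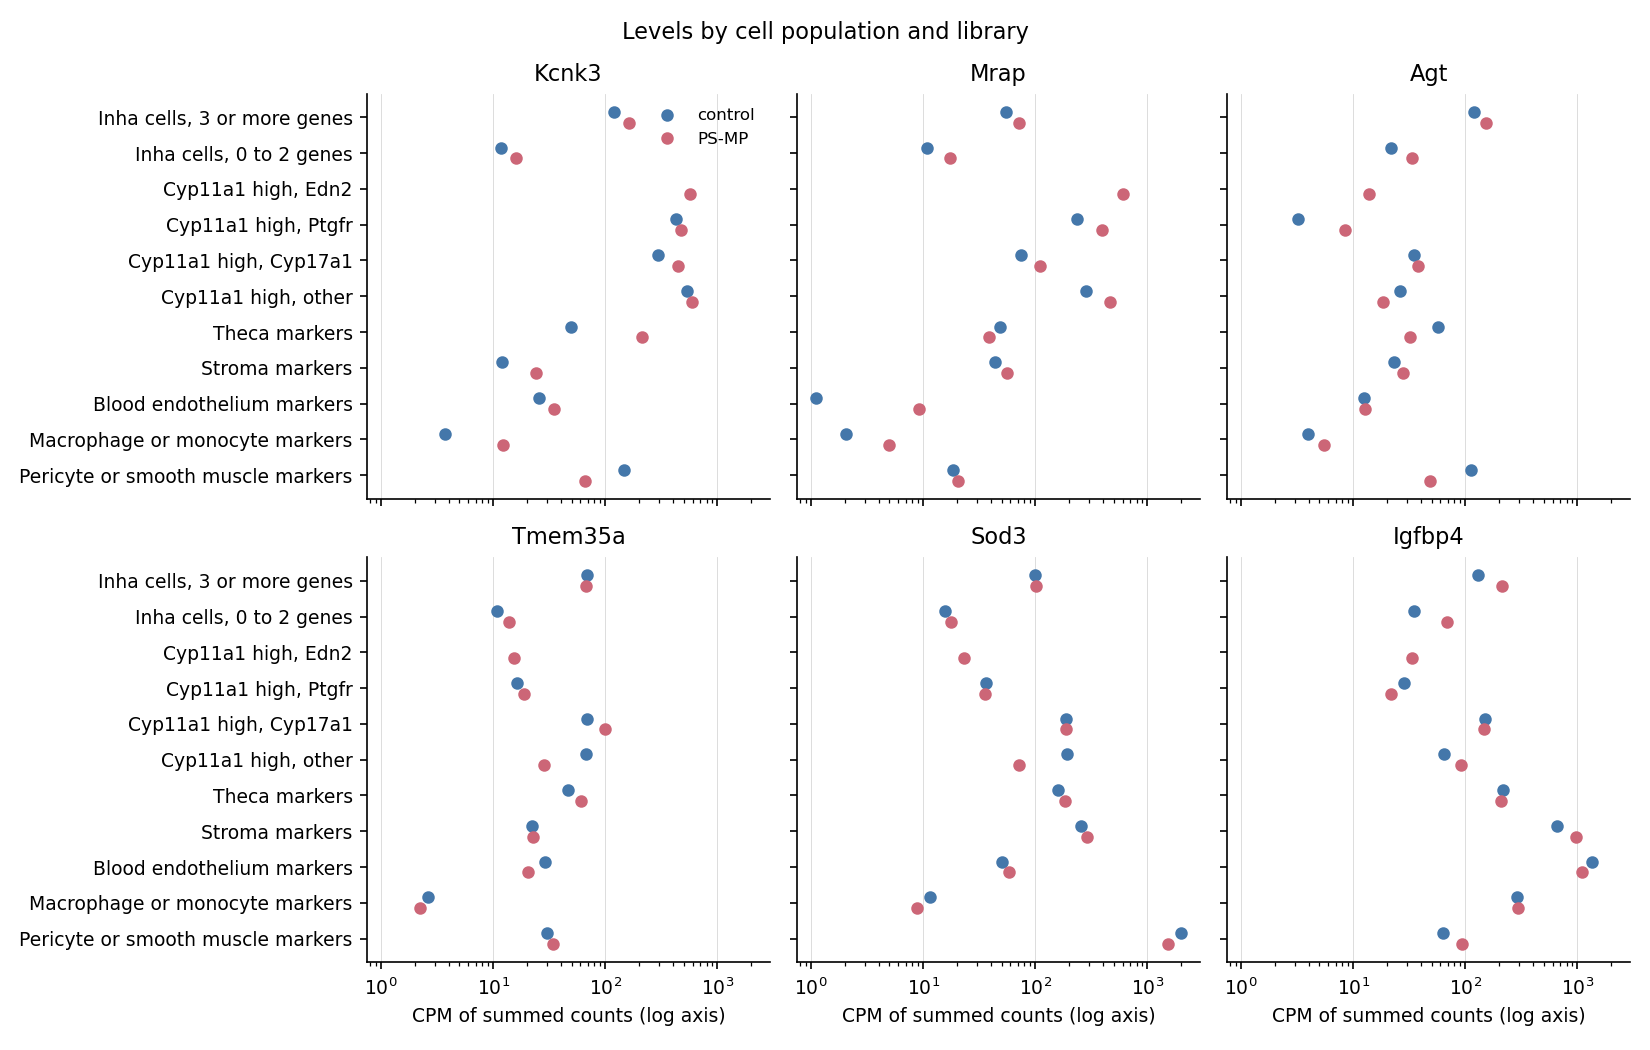
Level of each of the 6 markers (CPM of counts summed over cells, log axis) in 11 populations of the control (blue) and PS-MP (red) libraries. Populations below the first 2 rows were set by Cyp11a1 or by class markers, and the 6 control cells with high Cyp11a1 and Edn2 are not drawn. Kcnk3 and Mrap peak in cells with high Cyp11a1, Sod3 in pericyte or smooth muscle cells and Igfbp4 in endothelium and stroma. The level of the first 5 genes in the member cells is set by the rule.

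The label of granulosa state was checked against the markers of other ovarian cell classes. The member cells carried granulosa markers: 96.2% of PS-MP and 96.7% of control member cells had 3 or more of 8, against 97.3% and 97.9% of the other Inha cells, and Foxl2 stood at 1.03 and 1.16 times its level in the other Inha cells. Inha is among the 8 and every cell has it by the rule, so these shares follow in part from that choice. Part of them also carried mRNA of another class. At least 2 of the 6 markers of any 1 class among stroma, blood endothelium, macrophages, pericytes or smooth muscle, oocytes and T or NK cells were found in 18.4% of PS-MP member cells against 10.8% of the other Inha cells, and in 31.4% against 12.9% in the control library. The summed stroma markers stood at 705 against 168 CPM (PS-MP) and 997 against 176 (control), and the summed pericyte or smooth muscle markers at 140 against 39.5 and 193 against 38.4. In the PS-MP library the endothelial markers stood at 24.5 against 23.3 CPM and the macrophage markers at 15.8 against 44.4. Theca markers stood at 903 against 447 and 824 against 434 in the PS-MP and control libraries, and 3 or more of the 6 were found in 47.6% against 21.0% and 53.5% against 20.9% of cells. Among them Aldh1a1 and Cyp17a1 were at least 2-fold higher in both libraries. Cyp17a1 had ratios of 3.10 and 3.16, and of 3.67 and 1.08 without the marker-carrying cells. Insl3, a defining theca gene, was at 0 in the member cells and in the other Inha cells alike. Its level in theca cells is not given here, so nothing about theca mRNA is read from this 0. Theca markers were not among those used to leave cells out, and their part in the results was not tested. Oocyte markers stood at 92.3 against 14.1 CPM in the control library, where 2 of the 245 member cells had 2 or more of them, and at 1.49 without the marker-carrying cells. Scrublet, which scores cells that resemble 2 cells captured together, marked 8.67% of PS-MP member cells against 1.75% of the others, and 10.2% against 2.17% in the control library. Whether 2 cells captured together make up these profiles was not tested, and many of the ratios below are also given without the cells that carry other-class markers. Without them 386 PS-MP and 168 control member cells remained, with shares of 5.10% and 2.18%.

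The member cells did not form a cluster of their own. When neighbours were found on genes outside the rule, 18.0% of the 15 nearest neighbours of a PS-MP member cell were member cells, against 4.77% for the other Inha cells. The control values were 10.5% and 2.47%. Only 24 of the 473 PS-MP and 1 of the 245 control member cells had member cells for at least 50% of their neighbours, and 99 and 87 had 0. The neighbour share was 2.90%, 5.44%, 9.42%, 15.7%, 26.4% and 27.2% for PS-MP cells with 0 to 5 of the genes. Cells with Cyp11a1 at 2000 CPM or more made up 3.24% of the neighbours of PS-MP member cells against 0.234% for the other Inha cells, and 1.31% against 0.212% in the control library. Only 265 PS-MP and 137 control cells of that kind were counted here, beside 8525 and 8907 Inha cells within the limits. Of their own neighbours 82.3% and 74.6% were of that kind. The shares compare member cells with the other Inha cells and not with the whole pool, so no nearness to luteal cells is read from them.

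The member cells were concentrated in some granulosa clusters and scarce in others. In the PS-MP library 151 of the 473 fell in a cluster of 1264 cells led by Inhba, Hsd3b1 and Prkar2b, where they made up 11.9%. Their share was highest, at 22.0%, in a cluster of 168 cells led by Igfbp7 and collagens, in which 95.8% of all cells carried other-class markers and 63.1% were marked as doublets. It was 1.09% in the cluster of 737 cells led by Slc18a2 and Amh, and 1.04% in the 578 cells led by Inhbb, Inhba and glycolytic genes such as Ldha.

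On the clusters of the control library, member cells made up 3.81% of the 1365 cells led by Inhba and Hsd3b1, and 16.0% of 181 cells led by Igfbp7 and collagens, 98.3% of which carried other-class markers. They made up 0.613% of the 978 cells led by Slc18a2 and Amh. The Inha cells were also split into coarse bins taken in order, each without the cells of the bins before it. Within each bin the PS-MP share was above the control share. It was 4.61% against 2.08% among dividing cells and 4.23% against 1.94% among non-dividing cells with Amh. Among non-dividing cells without Amh it was 7.59% against 3.60% where Inhba was high and 7.09% against 3.94% in the remaining cells. The order held in each bin after thinning, on few cells. For cells with Amh the thinned ratio was 3.32 (0.594 to 33.6), from 6 PS-MP and 2 control cells, and its interval includes 1. For dividing cells it was 7.53 (1.77 to 67.5), from 16 and 2 cells.

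Across the transcriptome, 100 of the 7471 genes with at least 20 CPM in either population (1.34%) were at least 2-fold higher in the PS-MP member cells than in the other Inha cells, and 15 (0.201%) were at least 2-fold lower. In the control library 145 of 7643 genes (1.9%) were higher and 26 (0.34%) lower. Without the cells carrying other-class markers these counts were 48 (0.644%) and 14 (0.188%) of 7457 in the PS-MP library, and 70 (0.923%) and 27 (0.356%) of 7585 in the control library. Of the 100 genes higher in the PS-MP library, 41 remained among the 48. The counts include the 5 genes of the rule, and the comparison describes the cells that the rule picked.

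Several genes of connective tissue had high ratios that dropped with the other-class markers. Col3a1 (type III collagen) stood at 5.23 times its level in the other Inha cells of the PS-MP library, and at 1.91 without the marker-carrying cells. Col1a1 (type I collagen) stood at 4.36 and 0.829, Igfbp7 at 3.47 and 1.53, and Acta2 (smooth muscle actin) at 2.97 and 1.84. Without the marker-carrying cells Col1a1 lay under the 20 CPM floor, at 7.31 CPM in PS-MP cells with exactly 3 genes. Col1a1, Dcn and Acta2 are themselves among the markers used to leave cells out, so their drop follows in part from that choice, while Col3a1 and Igfbp7 are not. Basement membrane collagens and Cygb (cytoglobin) dropped less: Col4a1 stood at 3.32 and 2.15 in the PS-MP library and at 5.26 and 3.39 in the control library, and Cygb at 4.59 and 2.98 in the PS-MP library. The second Cygb ratio is near the floor. Without the marker-carrying cells Cygb stood at 15.8 CPM from 54 UMIs in PS-MP cells with exactly 3 genes. In the control library it was 14.1 CPM from 26 UMIs.

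A second group of genes had nearly the same ratio with and without those cells. Prss35, a secreted serine protease of the ovary, stood at 181 CPM in the PS-MP member cells against 47.9, a ratio of 3.77 (3.51 to 4.04), and at 3.54 without the marker-carrying cells. Its control ratios were 2.71 and 2.16. Lhcgr stood at 77.0 against 26.4 CPM, a ratio of 2.92 (2.63 to 3.24), and at 3.21 without them, with control ratios of 2.30 and 2.08. Clu (clusterin, a secreted chaperone) had ratios of 1.97 and 2.02, and 2.10 and 2.48 in the control library. Kitl, the KIT ligand that granulosa cells present to the oocyte and theca, had ratios of 1.89 and 1.98, and 2.03 and 2.15. Aldh1a1, a retinoic acid enzyme that is also on the theca list, had ratios of 2.44 and 2.48, and 2.83 and 2.37. Hspb1 (a small heat shock protein) was at 2.32 and 2.12, and at 3.73 and 3.48.

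**Figure D3:**
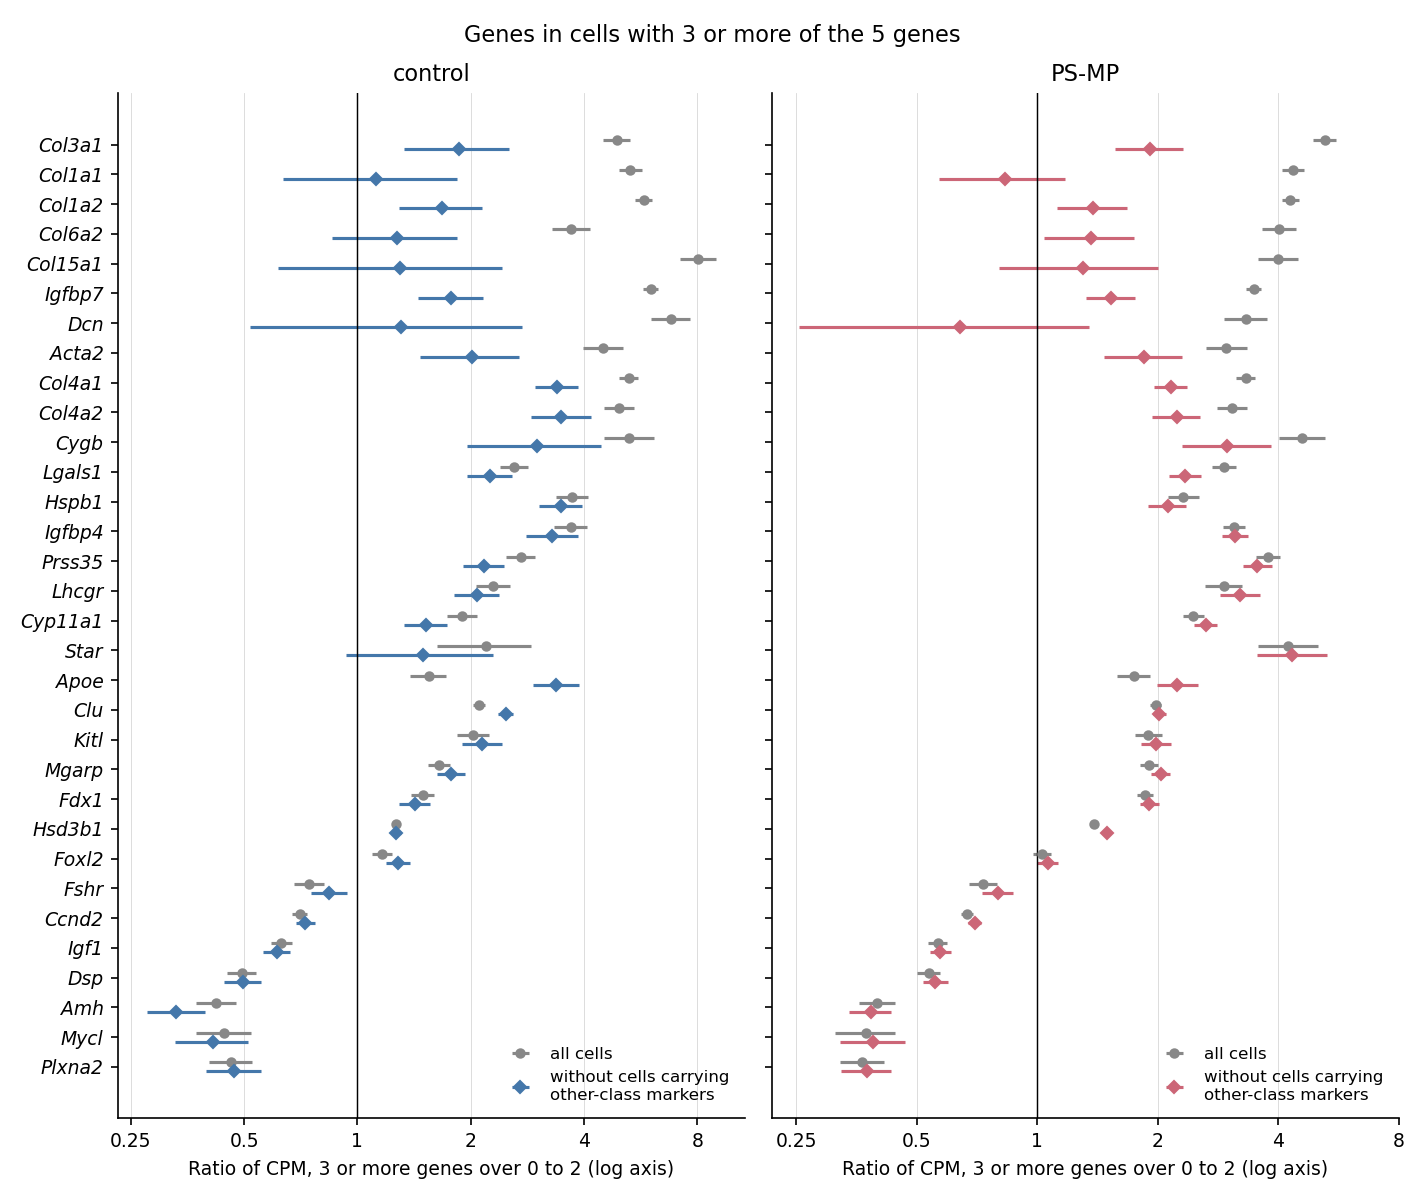
Ratio of CPM in the member cells over the other Inha cells (log axis) for 32 genes in the control and PS-MP libraries, with all cells (grey circles) and without cells carrying other-class markers (coloured diamonds). Bars are 95% intervals for counting error. Collagens, Igfbp7 and Dcn move towards or past 1 when those cells are left out, while Igfbp4, Prss35, Lhcgr, Clu and Kitl stay near 2 to 4 and Amh, Mycl and Plxna2 stay below 0.5. Col1a1 and Dcn lie under 20 CPM without those cells.

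Few genes of progesterone synthesis passed 2-fold. Of 15 measured of 17 listed genes for cholesterol uptake and progesterone synthesis, 1 (Star, which carries cholesterol into the mitochondrion) was at least 2-fold higher in the PS-MP library and 0 were lower, with a median log2 ratio of 0.40 against -0.03 over all genes. Star stood at 31.0 against 7.31 CPM, a ratio of 4.23 (3.55 to 5.03). Its control level was 16.2 against 7.40 CPM, and without the marker-carrying cells its control ratio had an interval from 0.931 to 2.29, which includes 1. Fdx1 and Fdxr, which pass electrons to Cyp11a1, had ratios of 1.86 and 1.67 (PS-MP) and 1.49 and 1.56 (control), and without the marker-carrying cells of 1.90 and 1.72, and 1.42 and 1.56. Hsd3b1, which makes progesterone, stood at 2197 against 1584 CPM, a ratio of 1.39, and at 1.27 in the control library, where the list had a median of 0.30.

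Cyp11a1, capped by the rule at 2000 CPM, had 242 CPM in the PS-MP member cells against 98.4, and 143 against 75.5 in the control library. Its ratios were 2.45 and 1.90, and 2.63 and 1.52 without the marker-carrying cells. It was not detected in 180 of the 473 PS-MP and 127 of the 245 control member cells, and stood at 500 CPM or more in 71 and 25. Its level in macrophage or monocyte cells, 160 CPM in the PS-MP and 74.2 in the control library, stood beside 98.4 and 75.5 in the other Inha cells. Among the other Inha cells, 337 of 8052 in the PS-MP and 394 of 8662 in the control library had Cyp11a1 at 500 CPM or more. How much of the Cyp11a1 in those cells is background was not tested.

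Genes that lead the early luteinising cells of the PS-MP library were also higher. Of 5 measured of 13 listed, 3 were at least 2-fold higher in PS-MP member cells (Cemip, Cited4 and Tinagl1) and 0 lower, with a median log2 ratio of 1.20. This list was drawn from these same libraries. Cited4, a transcriptional co-activator, stood at 95.7 against 41.8 CPM, and Tinagl1, a matrix protein, at 47.9 against 19.8. Mgarp, a mitochondrial protein of steroid-making cells, had a ratio of 1.90 and passed 2-fold at 2.04 without the marker-carrying cells. The prolactin receptor Prlr behaved likewise at 1.89 and 2.06. Cited4 and Tinagl1 were higher in the control library as well, at 2.20 and 3.46. Without the marker-carrying cells both stayed at least 2-fold higher in the PS-MP library. In the control library 3 genes of the list were then measured, and only Cited4 was at least 2-fold higher.

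Of the genes for the response to luteinising hormone and ovulation, 9 of 19 were measured in the PS-MP library, and 1 (Lhcgr) was at least 2-fold higher and 0 lower. Vcan, which encodes the matrix proteoglycan versican, stood at 0.581 times its level in the other Inha cells, and at 0.750 in the control library. The ovulatory list as a whole had a median of 0.28.

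Amh, the marker of small growing follicles, was among the genes at least 2-fold lower in the member cells of both libraries. It stood at 65.7 against 165 CPM (PS-MP), a ratio of 0.398 (0.357 to 0.441), and at 79.7 against 189 in the control library, a ratio of 0.422. Plxna2 (a semaphorin receptor) had ratios of 0.365 and 0.462, Mycl (a transcription factor of the MYC family) of 0.372 and 0.442, Dsp (desmoplakin, which anchors cell junctions) of 0.535 and 0.493 and Stra6 (a retinol transporter) of 0.498 and 0.478. Without the marker-carrying cells these ratios were 0.383 and 0.330 for Amh and 0.556 and 0.496 for Dsp. Cacna1a, a calcium channel subunit, was the lowest in the PS-MP library at 0.345 and stood at 0.587 in the control library. Of 21 measured genes of follicle-stimulating hormone and oestrogen action, 1 (Amh) was at least 2-fold lower, with a median of -0.12. Fshr stood at 0.732 and 0.743, and Igf1, the follicle's growth factor, at 0.563 and 0.627.

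None of the 26 measured of 29 cell cycle genes passed 2-fold in either direction in the PS-MP library, nor did any of 25 in the control library. Their PS-MP median log2 ratio was -0.44, with Mcm5 (a replication helicase subunit) at 0.657, Bub1 (a spindle checkpoint kinase) at 0.673 and Ccnd2 (cyclin D2, driven by follicle-stimulating hormone) at 0.667. The control median was -0.38. Dividing cells made up 34.9% of PS-MP and 28.6% of control member cells, against 42.4% and 38.1% of the other Inha cells.

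These differences ran as gradients over the number of the 5 genes and did not begin at the threshold. In PS-MP cells without other-class markers, Amh was 197, 154, 95.4 and 67.5 CPM in cells with 0, 1, 2 and 3 genes, and Igfbp4 was 40.3, 65.5, 122 and 176. Lhcgr was 20.5, 28.2, 41.1 and 71.0, and Clu was 318, 399, 625 and 728. Control Amh was 221, 166, 131 and 66.2, and Lhcgr 42.0, 64.6, 80.8 and 116. Cells with 4 or more genes continued the order in the PS-MP library, with Lhcgr at 135 and Amh at 49.8 CPM over 77 cells. The control bin held 17 cells, with Lhcgr at 67.4 CPM from 12 UMIs.

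**Figure D4:**
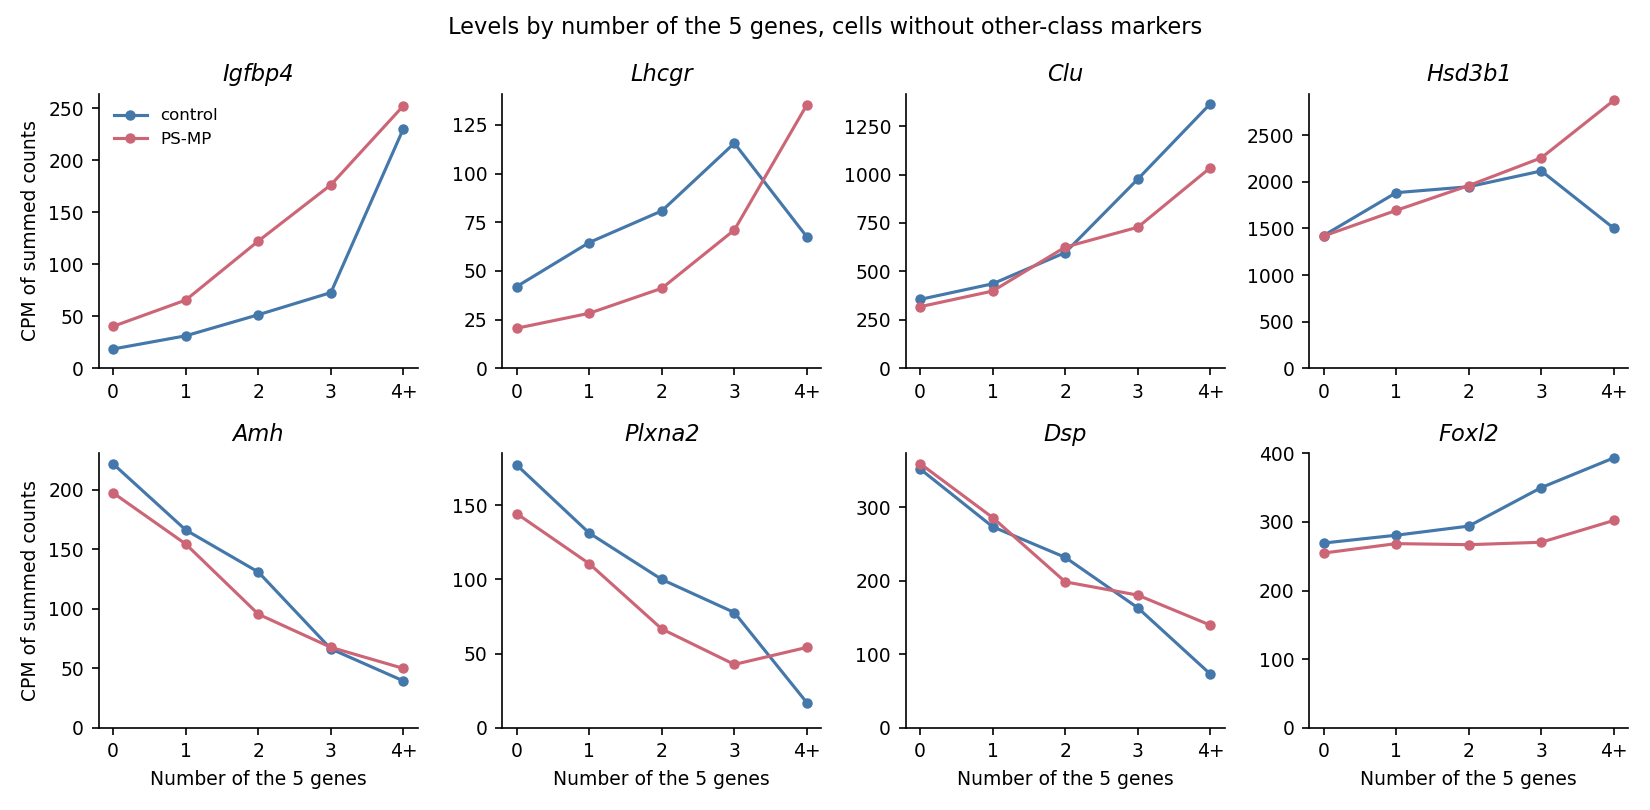
CPM of summed counts for 8 genes by the number of the 5 genes detected, in cells without other-class markers of the control (blue) and PS-MP (red) libraries. Igfbp4 and Clu climb and Amh and Dsp decline in both libraries from 0 to 3 genes, while Foxl2 lies between 255 and 270 CPM in PS-MP cells with 0 to 3 and goes from 269 to 350 in control cells. The last control bin holds 17 cells.

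The wider pathways of the 5 genes held few genes past 2-fold. Of 14 genes of the renin-angiotensin system besides Agt, 5 were measured in the PS-MP library, and Enpep and Ace, which cut angiotensins, were at least 2-fold higher. Enpep dropped from a ratio of 4.22 to 1.12 without the marker-carrying cells, and Ace from 2.32 to 1.66. Of the other potassium channels 3 of 17 were measured, with Kcnk2 at 1.23 and Kcnma1 at 1.20, and Kcnk2 stood at 0.819 in the control library. Of 21 genes of melanocortin receptors and cyclic AMP signalling 11 were measured and 0 passed 2-fold, with Prkar2b, a protein kinase A subunit, at 1230 against 883 CPM. None of 12 nicotinic receptor and chaperone genes reached 20 CPM. Among 25 measured antioxidant genes 0 passed 2-fold in the PS-MP library and the median was 0.03, with Gstm1, a glutathione transferase, the highest at 1.80. In the control library 2 of 25, Gpx3 and Mt2, were at least 2-fold higher, and only Gpx3 without the marker-carrying cells.

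Between the libraries, the PS-MP member cells had 54 genes (0.713% of 7574) at least 1.5-fold higher than the control member cells and 163 (2.15%) at least 1.5-fold lower. The other Inha cells had 4 (0.0546% of 7329) and 37 (0.505%). The member sums rest on 473 and 245 cells, so they scatter more, and no test separates the 2 sets of counts. Lower genes outnumbered higher ones in both.

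Several differences were also present in the other Inha cells. Grem1, which encodes the BMP antagonist gremlin, stood at 35.1 CPM in PS-MP against 210 in control member cells, a ratio of 0.167 (0.142 to 0.196), and at 0.254 in the other Inha cells. Cyp19a1 (aromatase, which makes oestrogen) had ratios of 0.348 and 0.471, Inhba (the activin A subunit) of 0.548 and 0.516 and Lhcgr of 0.640 and 0.504. On the higher side, Igfbp4 had a ratio of 1.65 (214 against 129 CPM) in the member cells and 1.97 in the other Inha cells, and Cited4 had 1.58 and 1.52.

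For some genes the ratio between the libraries was farther from 1 in the member cells. Gatm, which makes the creatine precursor, stood at 29.5 CPM in PS-MP against 118 in control member cells, with an interval of 0.207 to 0.300 around their ratio, which was 0.715 in the other Inha cells. Cyp11a1 had 1.68 and 1.30, beside a level in macrophage or monocyte cells of 160 CPM in the PS-MP and 74.2 in the control library. Star had 1.91 and 0.988, Id2 (an inhibitor of differentiation factors) 1.59 and 1.14, and the pantetheinase gene Vnn1 1.63 and 1.18. Igfbp7, at 0.559 and 0.969, Col4a1, at 0.700 and 1.11, and Plat (tissue plasminogen activator), at 0.423 and 1.10, were lower in the PS-MP member cells. The summed stroma markers of the member cells also differed, 705 in PS-MP against 997 CPM in control, and without the marker-carrying cells Plat stood at 1.04 between the libraries. Without them Igfbp7 stood at 51.34 CPM in PS-MP and 52.97 in control member cells, and Col4a1 at 114 and 125, so these 2 differences were also mostly gone. Gatm stood at 0.154 without them, Cyp11a1 at 2.19, Id2 at 1.38 and Vnn1 at 1.56.

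The rule sets the levels of its own genes in the member cells and in the other Inha cells, so nothing is read from their ratios between the libraries. In the member cells these ratios were 1.36 for Kcnk3, 1.32 for Mrap, 1.27 for Agt, 0.991 for Tmem35a and 1.03 for Sod3. In the other Inha cells they were 1.36, 1.59, 1.55, 1.27 and 1.13.

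Promoter sequence was examined for the 3 of the 6 markers found in the RefSeq table of GRCm38.p6. Neither AAGGTCA, the motif of the steroidogenic factors NR5A1 and NR5A2, nor TGACGTCA, the cyclic AMP response element, occurred on either strand in the 250 bases before the start of Agt, Tmem35a or Igfbp4. Of all 32851 such windows, 4.08% and 1.55% held them.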

How the data were processed

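The authors deposited raw UMI counts per gene and cell for 1 control and 1 PS-MP library, and Seurat and GRCm39 are named per the submitters' processing notes. The aligner is not given in the sources used here. Of 15373 and 15056 deposited cells, 14853 and 14770 were kept (at least 500 genes, at most 25% mitochondrial counts). Counts were summed per population and library and scaled to CPM, genes under 20 CPM in both populations were left out, and ratios carry exact conditional binomial 95% intervals, shares Clopper-Pearson ones, both for counting error only. The ratio and its interval were checked on simulated counts. Doublets were marked with Scrublet in scanpy 1.11.5 at an expected rate of 0.05 and kept. Clusters (Leiden, resolution 1) and the 15 nearest neighbours used 2000 variable genes without the 6 markers, Inha and Cyp11a1, and 30 components. Named genes were the 6 markers, the 15 highest and 15 lowest PS-MP ratios at 50 CPM or more, up to 6 genes of each list, the 10 highest and 10 lowest ratios between libraries, and class markers. The members and lists were chosen with earlier results of these data known. Alternatives covered the rule's thresholds, thinning, the CPM floor, doublets and the weighting of cells. One result is not reported here.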

Additional observations from a re-analysis of the deposited data

Results flagged for a closer look

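A few named genes stood on opposite sides of 1 in the 2 libraries when the member cells were compared with the other Inha cells, with intervals that did not reach 1 on either side. The difference between the libraries was not tested, since each group is 1 library. Gatm had a ratio of 0.688 in the PS-MP and 1.97 in the control library, and kept both sides without the cells carrying other-class markers, at 0.426 and 2.18. Cyp19a1 had 0.893 and 1.21, and both sides turned among cells with 4 or more of the genes, at 1.22 (PS-MP) and 0.557 (control). Nrn1, which encodes the membrane-anchored protein neuritin, had 1.14 and 0.857, with 1.09 and 1.02 without the marker-carrying cells. The remaining 3 are markers of other cells with few UMIs in the member cells. Zp2, an oocyte zona gene, had 0.527 from 10 UMIs in PS-MP and 5.34 from 115 UMIs in control member cells, and 0.297 in the control library without the marker-carrying cells. The haemoglobin genes Hba-a1 and Hbb-bs had 2.77 and 3.34 in the PS-MP library, from 25 and 10 UMIs, and 0.0735 and 0.220 in the control library.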

How the results depend on the processing

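No paired analysis was possible because each group is 1 library with no replicate. The share of member cells (control, PS-MP and their ratio) moved with the number of genes asked for, to 13.3%, 19.6% and 1.48 at 2 genes and to 0.337%, 1.16% and 3.45 at 4 genes. It was 0.348%, 0.962% and 2.76 after thinning and 0.269%, 0.692% and 2.57 when 2 UMIs were asked for. Asking for 3 of 4 genes gave 1.28%, 3.12% and 2.44 without Kcnk3, 1.46% and 3.13% without Mrap, 1.11% and 2.25% without Agt, 1.32%, 3.34% and 2.52 without Tmem35a, and 1.34% and 2.73% without Sod3. It was 3.18% in the control library at a lower Inha floor, 4.95% in the PS-MP library at a Cyp11a1 ceiling of 500 CPM, and 3.37% and 6.84% with no ceiling. The PS-MP share stayed above the control share in each of these. Leaving out cells with other-class markers was chosen after seeing the data and gave 2.18% in the control library.

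Counts of genes at least 2-fold higher and lower in the control library were 397 and 392 at 4 genes, 416 and 117 at a 5 CPM floor, 72 and 12 at a 50 CPM floor, and 339 and 192 at 1.5-fold, with 72 lower after thinning and 70 higher without cells with other-class markers. The PS-MP counts were 221 and 110 at 4 genes, 286 and 49 at 5 CPM, 43 and 9 at 50 CPM, 265 and 127 at 1.5-fold, and 172 and 35 against cells with 0 of the genes, with 37 lower after thinning, 61 higher without doublets and 48 higher without cells with other-class markers. Between the libraries the member counts were 306 and 470 after thinning, 273 and 609 at 5 CPM, 15 and 47 at 50 CPM, and 111 higher without cells with other-class markers.

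A few genes changed side of 1. Cyp19a1 stood at 0.557 (control) and 1.22 (PS-MP) at 4 genes, Inhba at 0.972 in the PS-MP library at a Cyp11a1 ceiling of 500 CPM, and, without cells with other-class markers, Col1a1 at 0.829 and Dcn at 0.641 in the PS-MP library and Plat at 1.04 between the libraries. The Col1a1 and Dcn ratios lie under the 20 CPM floor. In PS-MP cells with exactly 3 genes and no other-class markers, Col1a1 stood at 7.31 CPM from 25 UMIs. Dcn stood there at 1.46 CPM from 5 UMIs. The cause was not tested. The neighbour shares of member cells ranged from 7.54% to 9.35% (control) and from 15.9% to 16.8% (PS-MP) over their 4 alternatives. Over all results that compare populations, 49 values moved by less than their interval or 1.5 times and 59 moved by more. Of the values for single genes, 396 moved by less, 332 by more and 6 changed side.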

Other observations

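In the PS-MP library few genes of the other gene groups passed 2-fold. Among 16 measured immediate early genes of the PS-MP library 0 passed 2-fold, with Dusp1 (a phosphatase that ends MAP kinase signals) at 1.68 and at 1.59 without the marker-carrying cells, and Junb at 1.31 and 1.16. Of the insulin-like growth factor genes, Igf1 and its receptor Igf1r were lower at 0.563 and 0.780, and the binding protein genes Igfbp2 and Igfbp5 were higher at 1.68 and 1.23. Igfbp7 of this group was at least 2-fold higher in both libraries, and Pappa and Stc1 in the control library. Without the marker-carrying cells 0 were at least 2-fold higher in the PS-MP library, and only Pappa, the gene of PAPP-A, in the control library. Bmp2, a bone morphogenetic protein of mural granulosa cells, stood at 1.87 in the PS-MP and 2.07 in the control library, and at 1.94 and 2.21 without the marker-carrying cells. The FOXO target Sesn3 stood at 1.42 and 1.49, and the antiproliferative gene Btg2 at 1.30 and 1.48.

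Over the 8525 PS-MP Inha cells thinned to 3500 UMIs, the genes that followed the number of the 5 genes most closely were Tsc22d1 (Spearman rho 0.206), Clu (0.193), Atp1b2 (0.191), Sparc (0.183), Malat1 and Acsbg1 (both 0.170), Igfbp4 (0.150), Cited2 (0.146), and Tmem176b and Vim (both 0.138). The cells share 1 library, the correlations are weak and they are given as a description.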
